A study of Branchiostoma belcheri with 2 samples.

Results

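The miR-29 family was followed in the gill of an amphioxus, *Branchiostoma belcheri*, a small marine chordate without a backbone. The animals had been injected with LPS (lipopolysaccharide, a surface molecule of Gram-negative bacteria). Members were chosen by name: every probe called miR-29, with any letter or arm suffix, from any species on the microarray. This gave 23 of 1686 microRNA (miRNA) probes, of which 5 were amphioxus probes and 18 were designed for other animals. The LPS group was 1 array, labelled 12 h after injection of 15 µl of LPS at 1 mg/ml in phosphate-buffered saline (PBS). The control group was 1 array of animals given 15 µl of PBS, and its label gives no time, although the series is said to hold the 12 h time point. All animals were adults of 1 species from the sea off southern China, fed on algae in artificial seawater, and the sources used here state neither their age nor how many gills went into each RNA sample. With 1 array in each group the groups could not be tested against each other, and none of the differences below has a replicate check.

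miRNAs are short RNAs that guide Argonaute proteins to messenger RNAs, mainly through the seed, the stretch from position 2 to position 8, and lower their translation or stability. A hairpin precursor is cut into a 5p arm and a 3p arm, and for miR-29 the 3p arm is the one best known as the active strand in vertebrates. In mammals miR-29 represses collagens and other matrix genes, de novo DNA methyltransferases and, in mouse T cells, interferon-gamma. These roles are background from vertebrates and were not measured here.

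The members were probes for *B. belcheri* (prefix bbe, 1 probe), the Florida amphioxus *Branchiostoma floridae* (bfl, 4), a sea squirt (cin, 2), zebrafish (dre, 2), sea lamprey (pma, 5), an acorn worm (sko, 2), a sea urchin (spu, 2) and a clawed frog (xtr, 5). The 3p target sequences fell into types by their core, positions 2 to 19 counted from the 5′ end of bfl-miR-29a-3p. The 29a type has the core of bfl-miR-29a-3p (3 probes). The 29b type has the core of bbe-miR-29b-3p (5 probes), which differs from it by A10U. The position-18 variants differ from one of these cores by A18G (4 probes), and 4 further 3p probes have more than 1 core difference. The remaining 7 sequences are 5p arms. These types were drawn up after the values had been seen. The 12 sequences below carry the comparisons that follow. They are shown 5′ to 3′ as deposited, with capitals at positions 2 to 8, 10 and 18 in 3p arms and at positions 2 to 8 in 5p arms. bfl-miR-29b-3p starts 1 base later than the others and is aligned from position 2.
bfl-miR-29a-3p: uAGCACCAuAugaaaucAguuau
sko-miR-29a: uAGCACCAuAugaaaucAguuu
xtr-miR-29d: uAGCACCAuAugaaaucAguguc
bbe-miR-29b-3p: uAGCACCAuUugaaaucAgugcu
bfl-miR-29b-3p: AGCACCAuUugaaaucAgugcuu
dre-miR-29b: uAGCACCAuUugaaaucAgugu
xtr-miR-29b: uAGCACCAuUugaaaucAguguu
pma-miR-29a-3p: uAGCACCAuUugaaaucAguua
pma-miR-29d-3p: uAGCACCAuAugaaaucGguguc
dre-miR-29a: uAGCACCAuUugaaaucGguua
bfl-miR-29a-5p: gCUGAUUUcaguuggugcuaga
bfl-miR-29b-5p: aCUGGUUCcaagugguggguaga

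Of the 16 sequences of 3p arms, 15 carry AGCACCA at positions 2 to 8. The exception, bfl-miR-29b-3p, carries it from its first base, so its own positions 2 to 8 read GCACCAU. The shared seed, read on the target strand, stands at positions 2 to 8 in 15 of all 1686 probes (all 15 are miR-29). One further amphioxus probe, bbe-miR-2060c-3p, holds it elsewhere. The amphioxus 5p arms do not share a seed, with CUGAUUU in bfl-miR-29a-5p and CUGGUUC in bfl-miR-29b-5p, which lie 7 edits apart.

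Values are the median Cy3 intensity of a spot, on a linear scale, for the 2 repeat spots of each probe. A probe was detected when its mean was above a threshold set by the array's own 304 empty spots (their 95th percentile), 143.5 on the LPS array and 121.9 on the control array. Over the whole array 339 probes were detected in LPS gills and 648 in control gills, 684 in all. The pooled SD of repeat spots was 0.721 log2 units on the LPS array and 0.21 on the control array. The LPS array had 16 spots above 65535, the largest 16-bit value (highest 76957), against 0 on the control array (highest 65535). The maker's calibration spots whose names mark a matched form comprised 15 types detected on both arrays. Their raw LPS to control ratios ran from 0.166 to 0.992 (median 0.737), so each type was dimmer on the LPS array. Whether the raw miRNA readings of the 2 arrays share 1 scale was not tested. All miR-29 spots lay below 65535. A log2 difference is LPS minus control after quantile normalization, and the value after ± is its SE over repeat spots, which is technical. Each SE rests on 2 spots per array and is itself imprecise, so a small SE can come from spots that happened to agree. A probe was called higher or lower when 1 array or both detected it, the arrays differed at least 2-fold and their repeat spots did not overlap. By this rule 10.5% of the 684 detected probes were called higher and 10.5% lower.

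Of the 23 miR-29 probes, 10 were detected on the LPS array and 13 on the control array, and all 10 were among the 13. The amphioxus members accounted for 5 of 5 on both arrays, and the other species for 5 and 8 of 18. Among the 13 detected members, whose log2 differences ran from -2.71 to 1.52 (all detected probes, -5.55 to 3.14), 4 were called higher, 2 lower and 7 neither. Their median log2 difference was -0.45, against -0.10 over all 684 detected probes. For the 10 detected on both arrays it was 0.35, against 0.27 over all 303 such probes. The members thus lay on both sides of 0. Many of their sequences are near-identical and can bind 1 amphioxus RNA in common, so the 13 do not count as independent.

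The array held no *B. belcheri* probe for miR-29a. The brightest probe of the 29a type on both arrays was the Florida amphioxus probe bfl-miR-29a-3p. Its spots read 58925 and 57550 on the LPS array, against 28113 and 27168 on the control array. The LPS spots were both above the control spots, and the probe was called higher, 2.36-fold (log2 difference 1.24 ± 0.06). The acorn worm probe sko-miR-29a, which differs from it by A22U and lacks the last base, read 57061 and 44694 on the LPS array, against 26937 and 19801 on the control array. It was called higher as well, 2.55-fold (1.35 ± 0.22). These 2 probes kept a call of higher under each of 12 alternatives of background, scaling and repeat spot. Log2 differences were 1.08 to 2.20 for bfl-miR-29a-3p and 1.13 to 2.58 for sko-miR-29a. In alternatives with the deposited table or a single repeat spot, overlap of repeat spots could not be checked. Calls there, here and below, rest on detection and size alone.

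The frog probe xtr-miR-29d shares the same core but ends differently (U21G, A22U and U23C). It read 21210 and 20173 on the LPS array, against 21234 and 25240 on the control array, so its raw spots were lower on the LPS array, if only slightly for the nearest pair. After normalization it stood at 0.47 ± 0.14 and was not called. It was called higher under 1 of the 12 alternatives, the deposited table without centring (1.26). bfl-miR-29a-3p exceeded it by 0.77 ± 0.15 in log2 difference, and by 0.55 to 1.24 across the alternatives. Probes of the same core therefore did not move by the same amount.

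The 29b type holds the only *B. belcheri* member, bbe-miR-29b-3p. Its spots read 613.4 and 760.4 on the LPS array, against 2098 and 2374 on the control array. Raw intensity was lower on the LPS array in both spots, but the normalized difference was -0.45 ± 0.20 and the probe was not called. Its *B. floridae* counterpart bfl-miR-29b-3p, which lacks the first base and has 1 more at its end, read 710.0 and 848.6 on the LPS array, against 1364 and 1794 on the control array, which gave 0.22 ± 0.24 (not called). bbe-miR-29b-3p was below 0 in all 12 alternatives (-1.70 to -0.02) and called lower in 3 of them. bfl-miR-29b-3p was called in none of the 12, and its sign followed the scaling (-0.99 to 0.70).

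The remaining 29b type probes were designed for vertebrates. xtr-miR-29b, which differs from bbe-miR-29b-3p by C22U, read 305.5 and 207.5 on the LPS array, against 1393 and 1764 on the control array. It was called lower, 2.93-fold (-1.55 ± 0.47), and lost the call when only the first repeat spot was used (-0.96). dre-miR-29b, with the same substitution and 1 base less, read 690.6 and 516.3 on the LPS array, against 2945 and 2622 on the control array (-0.98 ± 0.21, not called). pma-miR-29a-3p read 1080 and 1505 on the LPS array, against 7150 and 5805 on the control array (-0.86 ± 0.31, not called). The lamprey probe has the 29b core, but over its full length it differs from bfl-miR-29a-3p at 1 aligned position (A10U) and from bbe-miR-29b-3p at 2 (G21U and C22A). dre-miR-29b (1.97-fold lower) and pma-miR-29a-3p (1.82-fold lower) stood short of the 2-fold threshold and were each called lower in 8 of 12 alternatives.

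The 29a and 29b types did not overlap in log2 difference when the SEs are left aside. The 3 probes of the 29a type ranged from 0.47 to 1.35 (median 1.24) and the 5 of the 29b type from -1.55 to 0.22 (median -0.86). At the edge, xtr-miR-29d (0.47 ± 0.14) and bfl-miR-29b-3p (0.22 ± 0.24) overlapped within their SEs over repeat spots. Since the types were drawn up with these values in view, their order is a description. Changes of threshold or filter leave it as it is, and a constant scaling moves all probes alike. Among settings that could change it, the lowest 29a type and highest 29b type probes lay at -0.01 and -0.40 with loess, and at 0.29 and 0.22 with the second repeat spot only, the narrowest gap. With no normalization between arrays the types lay at -0.16 to 1.13 and -2.64 to -0.99. Between the amphioxus probes, bfl-miR-29a-3p minus bbe-miR-29b-3p was 1.69 ± 0.21 log2 units (1.63 to 2.77 across alternatives). bfl-miR-29a-3p minus bfl-miR-29b-3p was 1.02 ± 0.25 (0.96 to 2.07). A constant scaling factor drops out of these differences between probes. With 1 array per group, treatment and array cannot be told apart.

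The maker's calibration spots moved alongside. In 23 usable pairs of spots whose names mark a matched and a mismatched form, mismatched signal as a share of matched signal was a median of 1.19% on the LPS array and 10.3% on the control array. The LPS share was the lower one in 22 of the 23, with Ctr10-3M10 the exception. Pairs were usable only if the mismatched form was detected on the control array, which favours this direction. Whether miR-29a RNA reached the 29b type probes, and what part mismatched binding or spot brightness had in the difference between types, was not tested.

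The position-18 variants include the member with the largest decrease. The lamprey probe pma-miR-29d-3p read 151.1 and 134.2 on the LPS array, against 1794 and 1260 on the control array. It was not detected in LPS gills, by a mean of 142.7 against a threshold of 143.5. In the main setting it was called lower, at least 6.55-fold (-2.71 ± 0.30). All 12 alternatives called it lower too, with log2 differences of -4.02 to -1.92. None of the 24 empty spots within 10 rows of it on the LPS array reached its mean of 142.7 (highest 133.5). It is 1 edit from xtr-miR-29d, A18G. In the main setting the frog probe exceeded the lamprey probe by at least 3.18 log2 units in difference. This is a bound within that setting, because the lamprey probe was below threshold on the LPS array. Across the 12 alternatives the excess was 2.38 to 4.48. Neither sequence was designed for amphioxus, and which amphioxus RNA bound them is not known.

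The other position-18 variants lay near background. xtr-miR-29a read 82.2 and 90.6 on the LPS array, against 138.5 and 144.1 on the control array, where it was detected. xtr-miR-29c-3p read 77.5 and 86.8 on the LPS array, against 120.8 and 129.4 on the control array, where its mean of 125.1 was just above threshold. No fold is given for these 2, since the dimmer side was below background and their bounds fell under 1. The zebrafish probe dre-miR-29a read 105.1 and 116.3 on the LPS array, against 118.6 and 120.6 on the control array, and was detected on neither, although it is 1 edit (A18G) from pma-miR-29a-3p, which was detected on both. The 4 probes with more than 1 core difference (cin-miR-29-3p, pma-miR-29b, spu-miR-29a, spu-miR-29b) were detected on neither array. Mean intensity of the 10 members detected on neither array ran from 85.3 to 118.8 on the LPS array and from 103.7 to 121.7 on the control array.

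Both amphioxus 5p arms were detected on both arrays, and the 5 of other species on neither. bfl-miR-29a-5p read 5378 and 5994 on the LPS array, against 5133 and 5137 on the control array. The raw spots did not overlap but lay close, and after normalization the probe was called higher, 2.86-fold (1.52 ± 0.06). bfl-miR-29b-5p read 419.7 and 304.1 on the LPS array, against 411.6 and 369.1 on the control array, so its raw spots did overlap. It was called higher only after normalization, 2.05-fold (1.04 ± 0.27). The calls for these arms depended on scaling. bfl-miR-29a-5p was above 0 in all 12 alternatives (0.15 to 1.75) and called in 8, whereas bfl-miR-29b-5p was called in 4 and stood at -0.02 with no normalization.

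The probes for the 5p and 3p arms of *B. floridae* miR-29a both were called higher, and the 5p minus 3p difference was 0.28 ± 0.09 log2 units. Its sign was kept in 5 of 12 alternatives (-0.92 to 0.29), which are those that keep quantile normalization. It reversed with every other scaling, such as loess (-0.60), and with the deposited table (-0.34). The data therefore do not order these arms. Within *B. floridae* miR-29b, the 5p arm exceeded the 3p arm by 0.81 ± 0.36, with the same sign in all 12 (0.57 to 1.00). The 12 are not separate checks of a difference between probes. Median scaling, the median difference, calibration spots and no normalization all give the same value for it. The centred and uncentred deposited table also share 1 value. There the 5p arm was called higher and the 3p arm was not called. Between the 5p arms, bfl-miR-29a-5p exceeded bfl-miR-29b-5p by 0.48 ± 0.28, and by -0.06 with loess.

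Calls were also counted by the species of the probe. Of the 5 amphioxus members 3 were called higher and 0 lower, beside 16.7% higher and 3.92% lower among the 204 detected amphioxus probes. Of the 8 detected members of other species 1 was called higher and 2 lower, beside 7.92% and 13.3% among 480 such probes. Whether the amphioxus members and those of other species differ was not tested. The authors' deposited table listed bfl-miR-29a-3p at 72185 in the LPS column and 16869 in the control column, a ratio of 4.28. It listed bbe-miR-29b-3p at 785.8 and 794.2, a ratio of 0.989, and bfl-miR-29a-5p at 6551 and 1944, a ratio of 3.37. In the same table pma-miR-29d-3p stood at 59.0 for LPS and 548.9 for control, a ratio of 0.107.

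Other amphioxus probes lay close to each amphioxus member in log2 difference, the 3 nearest being taken among those detected on both arrays. The likeness rests on 2 arrays only, and neighbours were taken by difference alone, whatever their brightness or SE. For example, bfl-miR-4868b had a mean of only 194.9 on the LPS array and 125.0 on the control array. The SE of bbe-miR-183-5p was 1.32. For bfl-miR-29a-3p these were bfl-miR-4868b (1.24), bfl-miR-4859-3p (1.23) and bfl-miR-278 (1.23), and for bfl-miR-29a-5p they were bfl-miR-125a-3p (1.496), bfl-miR-2068-5p (1.49) and bfl-miR-31-5p (1.49). The nearest to bfl-miR-29b-5p were bbe-let-7a-3p (1.06), bbe-miR-281-5p (1.07) and bfl-miR-4873 (1.00). The nearest to bbe-miR-29b-3p were bfl-miR-4856b-5p (-0.41), bbe-miR-183-5p (-0.55) and bfl-miR-4869-3p (-0.34). For bfl-miR-29b-3p they were bbe-miR-92c-3p (0.23), bbe-miR-2060b-3p (0.22) and bbe-miR-2076-5p (0.22). With no normalization bfl-miR-29a-3p stood at 1.08, bfl-miR-4868b at 1.03, and bfl-miR-4859-3p at -0.11.

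Other miRNAs linked in mammals to matrix and fibrosis, or to DNA methyltransferases, were counted from lists. Membership of the matrix and fibrosis list does not mean an effect in the same direction as that of miR-29. Matrix and fibrosis miRNAs (miR-21, miR-26, miR-30, miR-133, miR-192 and miR-200) had 62 probes and 31 detected, of which 2 were called higher and 3 lower, beside 10.5% each way over all detected probes. Their median was -0.06, against -0.10 over all detected probes. The lower ones were all miR-200 probes: dre-miR-200a (-2.003 ± 0.14), spu-miR-200-3p (-1.84 ± 0.46) and cin-miR-200-3p (at least 1.76-fold lower, undetected in LPS gills). A probe of the studied species, bbe-miR-200a-3p, was called higher (1.35 ± 0.23), so miR-200 had 1 higher, 3 lower and 10 not called of 14 detected. The other higher one, the lamprey probe pma-miR-26a-1-3p, was undetected in control gills and at least 2.91-fold higher, with an SE of 1.05 log2 units over its repeat spots. miRNAs that target DNA methyltransferases in mammals (miR-143, miR-148 and miR-152) had 10 probes and 3 detected, none called, each on 1 array only. bbe-miR-2060c-3p, with the miR-29 seed letters outside the seed position, stood at -0.18 and was not called.

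Markers of other tissues were counted in the same way, beside 10.5% higher and 10.5% lower over all detected probes. Summed intensity over all 1686 probes was 2491107 on the LPS array and 2932611 on the control array. This sum and those below include undetected probes, and no background was subtracted. Empty spots had a median of 99.8 on the LPS array and 107.3 on the control array. The sum of a list with few detected probes, such as the blood list, is therefore mostly background. Muscle miRNAs (miR-1, miR-133, miR-206) had 0 higher and 3 lower of 21 detected among 35 probes, and their summed intensity was 4390 on the LPS array and 6963 on the control array. Neural miRNAs (miR-9, miR-124, miR-137) had 2 higher and 2 lower of 16 detected among 30, with sums of 7063 on the LPS array and 11402 on the control array. Ciliated and epithelial miRNAs (miR-34, miR-449, miR-200, miR-141, miR-429) had 6 higher and 6 lower of 37 detected among 50, with sums of 102433 on the LPS array and 187469 on the control array. Blood miRNAs (miR-142, miR-144, miR-223, miR-451) had 1 higher and 0 lower of 2 detected among 11, with sums of 1287 on the LPS array and 1248 on the control array. No miRNA was taken as a defining marker of the amphioxus gill. Fewer cells of a type and less RNA per cell cannot be told apart in such samples, and the part of tissue makeup in the miR-29 differences was not tested.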

How the data were processed

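Per the labels, total RNA was poly(A)-tailed, joined to a Cy3-stained tag and hybridised to 1-colour miRNA arrays. Per the file headers, the deposited scanner files give the median Cy3 intensity of each of 3968 spots, of which 3372 are miRNA spots, linear and without a background column. The authors also deposited 1 processed intensity per probe and array, with background, scale and centring unstated. The sources used here do not name the scanner, its software or the miRNA release. From the spots, normexp background correction (offset 50, all spots), log2, quantile normalization over miRNA spots and the mean of 2 repeat spots were computed with limma 3.58.1 in R 4.3.3. The offset shrinks differences of dim probes. For a probe detected on 1 array, "at least" gives the bright array's value over the higher of the dim probe's own value and the lowest detected signal. Steps were tested on simulated data built from the control array, with a constant scale factor between arrays. Its log2 repeat-spot noise was set to the same value for both arrays, below the pooled SD of repeat spots of either array. The simulation therefore does not cover the noise of the LPS array, or shifts between arrays that vary with intensity. Named probes were all miR-29 probes, the 3 nearest amphioxus probes to each amphioxus member, and up to 4 examples per list. Named outside this rule were bbe-miR-200a-3p, the miR-200 probe called higher, and bbe-miR-2060c-3p, which holds the seed letters elsewhere. Members and lists were chosen with earlier results of these data known. Groups came from the agent label. Alternatives were offsets of 16 and 200, no background correction, median scaling, loess (span 0.4), no normalization, calibration spots, the deposited table centred (floor at its 1% quantile), single repeat spots, other detection filters and other folds. The deposited table without centring and scaling to the median difference were added after seeing the data. The number of arrays limits the precision. No coordinates were used.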

Additional observations from a re-analysis of the deposited data

How the results depend on the processing

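Of 232 values recomputed over 16 alternatives, 140 moved by less than the repeat-spot spread or stayed within 1.5 times a count, 91 moved further and 1 called value changed sign: bfl-miR-29b-5p, at -0.0190 with no normalization between arrays. The number of detected miR-29 probes above 0 was 6, against 3 with no normalization and 12 with no detection filter, which adds undetected probes. Calls of higher were 4 in the main setting, and 2 with scaling to the median difference, loess, no normalization and the centred deposited table. Calls of lower were 2 in the main setting, 4 with median scaling, calibration spots and the 1.5-fold threshold, 5 with scaling to the median difference, loess, no normalization and the uncentred deposited table, and 6 with the centred table. In both of its forms these lower calls include xtr-miR-29a and xtr-miR-29c-3p, near background on the spots and listed there at 0.01 for LPS. Calls in either direction were 6, against 10 with the uncentred table, and 1 (0 higher, 1 lower) with the 3-fold threshold. The median of detected members minus that of all detected probes was -0.35, against 0.47 with the deposited table (centred or not), 0.0298 with detection at the 99th percentile and 0.0407 with no detection filter. The cause of these shifts was not tested, apart from the filters and thresholds, which change the probes counted. Over all detected probes the median difference was -0.10 in the main setting, 0.94 with median scaling, 0.70 with calibration spots and -0.18 with no normalization. All probes called higher and lower numbered 72 and 72, against 314 and 57 with median scaling, 177 and 63 with calibration spots, 65 and 85 with the median difference, 30 and 85 with loess. Without normalization they were 25 and 128. They numbered 161 and 296 with the uncentred table, 61 and 364 with the centred one, 44 and 51 with an offset of 200, 110 and 125 at 1.5-fold and 18 and 45 at 3-fold. Counts from the deposited table, for miR-29 and for all probes, involve no check of repeat-spot overlap. They are therefore not like for like with the main setting. No paired analysis was possible because each group has 1 array. Differences below background cannot be measured on the LPS array for 13 of the 23 members.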

Other observations

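The authors' deposited table lists xtr-miR-29a at 0.01 in the LPS column and 27.8 in the control column, and xtr-miR-29c-3p at 0.01 and 14.9. Their spots on the LPS array (82.2 to 90.6 and 77.5 to 86.8) lie below the median of all empty spots there (99.8), but around that of the empty spots within 10 rows of each (78.0 and 79.0).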
